A study of Arabidopsis thaliana with 16 samples.

Results

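The d14-7 mutant of Arabidopsis thaliana, labelled a knockout of D14, the receptor of strigolactones, is compared here with wild-type Col-0 (WT). The comparison rests on 8 of the 16 poly(A) RNA libraries of the series, 4 of d14-7 and 4 of WT, and on all 20947 loci that passed a filter on low counts, out of 33602 loci in the count table. Both groups were grown in days of 16 h light and 8 h dark and harvested 23 days after sowing, on a morning when the bolt was still under 1 cm. The sample was the rosette region, which holds the axillary meristems, with leaves, roots and elongated stem cut off. Each library pools 2 to 3 plants. The other genotypes of the series are the ckx3 ckx5 double mutant, also of day 23, and scl28, of day 25, so that for scl28 genotype and harvest day cannot be told apart. The libraries labelled ckx3 ckx5 go by that label only, since both targeted transcripts were still counted in them: CKX3 averaged 1.73 CPM there and 0.339 CPM in WT, and CKX5 averaged 2.83 CPM there and 3.33 CPM in WT. The labels do not give the lesion of d14-7.

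Strigolactones are carotenoid-derived hormones that restrain the outgrowth of axillary buds. D14 binds and cleaves the hormone and then joins the F-box protein MAX2, and this complex marks the repressors SMXL6, SMXL7 and SMXL8 for destruction. One of the genes held down by these repressors is BRC1, a TCP transcription factor of the axillary bud that keeps it dormant.

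In d14-7 the transcripts of the strigolactone synthesis enzymes MAX3 and MAX4 were many times higher and those of the SMXL repressors, BRC1 and its homeobox targets were lower than in WT. Auxin synthesis genes were higher, and abscisic acid response genes were lower, in every list member tested or nearly so. With the leaf score described below as a covariate, 4 of 10 and 11 of 20 of them were called. Of all loci tested, 3796 were higher in d14-7 (18.1%) and 4305 were lower (20.6%) at an edgeR adjusted p under 0.05, which is the threshold for "rose" and "fell" below. At least 2-fold differences were fewer, with 315 loci higher (1.50%) and 707 lower (3.38%). The median log2 fold change over all loci was -0.01. Levels are CPM, the counts of a locus scaled to a common library size. Changes are on the log2 scale and stand beside their standard error (SE), with 4 libraries in each group, and a list of genes is described by its counts and its median beside these background values.

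Library totals ran from 24334925 to 35887553 counts in d14-7 and from 28120497 to 36453565 in WT. The WT libraries were spread, and their order recurs in many gene lists. The leaf score averages log2 CPM over 23 photosynthesis genes and was 10.52, 10.23, 10.41 and 10.56 in d14-7 replicates 1 to 4, against 10.47, 10.06, 9.70 and 9.51 in WT replicates 1 to 4. WT replicate 1 thus lay inside the range of d14-7, and WT replicates 3 and 4 lay furthest below it. Under the leaf-score covariate in the model, 695 loci were higher in d14-7 (3.32%) and 1251 were lower (5.97%). In a bulk sample of this kind, fewer cells of a type and less RNA per cell cannot be told apart.

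D14 itself (AT3G03990, chromosome 3, 1033579 to 1035237, plus strand, TAIR10.1) had 27.7, 28.6, 32.4 and 33.3 CPM in d14-7, against 40.7, 39.2, 40.7 and 44.1 CPM in WT. The groups did not overlap, and D14 fell by 0.43 on the log2 scale (SE 0.07, edgeR adjusted p = 0.000251). Transcript of the targeted gene was therefore still counted in every d14-7 library. Over all loci, 2263 had no overlap with d14-7 higher (10.8%) and 3344 had none with d14-7 lower (16.0%).

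Of the 7 genes of strigolactone synthesis and breakdown, 4 rose and 2 fell, with a median log2 fold change of 1.16. MAX4, the carotenoid cleavage dioxygenase 8 that forms carlactone, had 45.5, 35.8, 45 and 31.6 CPM in d14-7, against 2.83, 3.99, 2.5 and 3.43 CPM in WT. The lowest d14-7 library was far above the highest WT library, and MAX4 rose by 3.63 ± 0.15 (edgeR adjusted p = 3.07e-10). MAX3, the carotenoid cleavage dioxygenase 7 that acts just before it, had 22.8, 16.1, 23.4 and 14.7 CPM in d14-7, against 0.748, 1.03, 1.15 and 2.35 CPM in WT. Its change was 3.83 ± 0.29 (edgeR adjusted p = 5.63e-07). D27, the isomerase at the start of the pathway, was at 2.97 ± 0.628 CPM in d14-7, against 1.24 ± 0.834 CPM in WT (SD, n = 4 each), and LBO, an oxidase late in the pathway, was at 29.9 ± 5.73 CPM in d14-7, against 13.3 ± 2.91 CPM in WT. Both rose, D27 by 1.27 ± 0.34 and LBO by 1.16 ± 0.15 (edgeR adjusted p = 0.00927 and 6.76e-05). MAX1, the cytochrome P450 between MAX4 and LBO, did not follow them: it was at 46.3 ± 3.29 CPM in d14-7, against 69.5 ± 16.9 CPM in WT, a fall by 0.59 (SE 0.12, edgeR adjusted p = 0.00242).

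The largest fall of this list was in AT5G06570, annotated in RefSeq as an alpha/beta-hydrolase superfamily protein. It had 0.0843, 0.155, 0.428 and 0.173 CPM in d14-7, against 4.85, 4.45, 5.62 and 8.49 CPM in WT, a change of -4.75 ± 0.36 (edgeR adjusted p = 5.27e-07). The d14-7 libraries were at or near the bottom of detection while all WT libraries held the transcript. The methyltransferase AT4G36470 was not called, at 17.2 ± 0.327 CPM in d14-7, against 18.5 ± 3.6 CPM in WT (edgeR adjusted p = 0.475), though it passed without WT replicate 1 (-0.23, edgeR adjusted p = 0.038). In the leaf-score model MAX3, MAX4 and LBO kept their rise and AT5G06570 its fall, while D27 and MAX1 were no longer called (0.60 and -0.23, edgeR adjusted p = 0.212 and 0.165). D27 was also not called with only the d14-7 and WT libraries in the model (edgeR adjusted p = 0.0526) or without WT replicates 3 and 4 together (0.67, edgeR adjusted p = 0.127).

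The same genes were tested directly against the other genotypes. MAX4 averaged 39.5 CPM in d14-7, against 11.8 CPM in the ckx3 ckx5 libraries (a difference of 1.74) and 8.17 CPM in scl28 (2.27) (edgeR adjusted p = 8.28e-08 and 9.81e-09). For MAX3 the differences were 2.58 and 2.80, and for AT5G06570 they were -4.52 and -4.0, all with edgeR adjusted p of 2.16e-06 or less. In all, 3 members rose and 1 fell against all 3 other genotypes, which 6.02% of all loci did upward and 8.47% did downward.

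**Figure D1:**
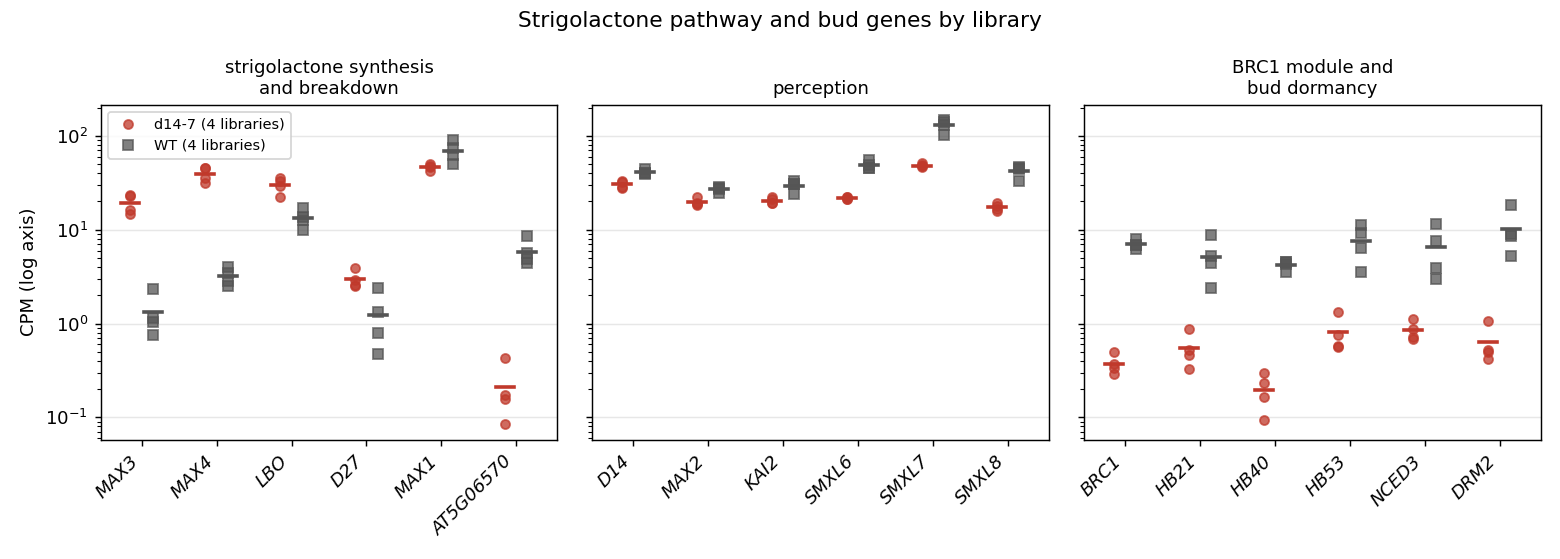
Level of 18 genes in each library, as CPM on a log axis, with d14-7 as red circles left of WT as grey squares and a bar at each mean. MAX3 and MAX4 stand about 10-fold or more above WT in d14-7, the SMXL repressors lie below WT, and the genes of the right panel do not overlap between the groups.

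Of the 11 genes of strigolactone and karrikin perception, none rose and 7 fell (D14, MAX2, KAI2, SMXL2, SMXL6, SMXL7 and SMXL8), with a median of -0.46, and each of the 7 was lower in all 4 d14-7 libraries than in any WT library. SMXL7 had 51.0, 48.4, 46.2 and 47.7 CPM in d14-7, against 102, 130, 139 and 148 CPM in WT, a change of -1.43 ± 0.09 (edgeR adjusted p = 8.18e-08). SMXL6 was at 21.8 ± 0.658 CPM in d14-7, against 48.5 ± 4.50 CPM in WT, and SMXL8 was at 17.5 ± 1.48 CPM in d14-7, against 42.4 ± 6.44 CPM in WT. They fell by 1.15 and 1.28 (SE 0.09 and 0.10, edgeR adjusted p = 4.25e-07 and 9e-07). The transcripts of the 3 repressors that D14 targets were thus at less than 1 in 2 of the WT level, with little spread among the d14-7 libraries.

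The other members of the SMXL family differed less. SMXL2, which like SMAX1 acts downstream of the karrikin receptor KAI2, fell by 0.48 (SE 0.11, edgeR adjusted p = 0.00445). SMAX1 was at 46.2 ± 1.82 CPM in d14-7, against 48.6 ± 3.99 CPM in WT and was not called. SMXL3, SMXL4 and SMXL5, which act in phloem formation and not in strigolactone signalling, had changes of 0.23, 0.25 and 0.16 and were not called (edgeR adjusted p = 0.0529, 0.0674 and 0.087). Each of these 3 passed when 1 WT library was left out: SMXL3 without WT replicate 1 (0.25), SMXL4 without replicate 3 (0.32) and SMXL5 without replicate 2 (0.21). SMXL3 was higher in every d14-7 library than in any WT library. It also passed with all libraries in DESeq2 (adjusted p = 0.0439) and limma-voom (adjusted p = 0.0483), so its call depended on the tool. The partner MAX2 fell by 0.46 (SE 0.08), at 19.6 ± 1.71 CPM in d14-7, against 27 ± 1.76 CPM in WT, and KAI2 fell by 0.53 (SE 0.09), at 20.5 ± 1.48 CPM in d14-7, against 29.5 ± 3.71 CPM in WT.

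All 7 falls of the perception list were also called with the leaf score as a covariate. Against both other genotypes as well as WT, 6 of the 7 were lower in d14-7, and the exception was D14, at 30.5 CPM in d14-7, against 28.1 CPM in the ckx3 ckx5 libraries (0.12, edgeR adjusted p = 0.179). SMXL8 stood at 17.5 CPM in d14-7, 75.4 CPM in the ckx3 ckx5 libraries, 54.5 CPM in scl28 and 42.4 CPM in WT.

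Of 5 genes known to respond to strigolactone or karrikin, none rose or fell, with a median of -0.22: KUF1, a karrikin-induced F-box gene, had a change of 0.22 ± 0.17, the B-box gene BBX20 0.01 ± 0.26, PAP1, a MYB activator of anthocyanin genes, -0.22 ± 0.25 and the TCP factor TCP1 -0.53 ± 0.30. The fifth, the alpha/beta-hydrolase AT3G24420, was not called at 1.47 ± 0.503 CPM in d14-7, against 2.09 ± 0.316 CPM in WT. TCP1 spanned 5.14 to 6.11 CPM in d14-7, inside the 3.95 to 13.4 CPM of WT, and it passed as lower without WT replicate 4 (-0.77, edgeR adjusted p = 0.0393), with the leaf score (-1.23, edgeR adjusted p = 0.000287) and without WT replicates 3 and 4 together (-1.06).

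Of the 7 genes of the BRC1 module, 6 fell and none rose, with a median of -3.25. BRC1 (AT3G18550) had 0.337, 0.373, 0.494 and 0.288 CPM in d14-7, against 6.80, 6.91, 6.27 and 7.99 CPM in WT, a change of -4.22 ± 0.27 (edgeR adjusted p = 8.18e-08). HB40, a homeobox gene that BRC1 activates directly, had 0.295, 0.0932, 0.165 and 0.230 CPM in d14-7, against 3.58, 4.35, 4.56 and 4.48 CPM in WT, a change of -4.45 ± 0.27 (edgeR adjusted p = 4.24e-08). The WT libraries were close together for BRC1 and HB40, so that their spread on the leaf score was not seen in these 2 genes.

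The other homeobox targets HB21 and HB53 and the abscisic acid enzyme that they induce were spread more widely in WT. HB21 had 0.885, 0.528, 0.329 and 0.461 CPM in d14-7, against 2.37, 4.38, 5.27 and 8.70 CPM in WT (-3.27 ± 0.36, edgeR adjusted p = 1.91e-05). HB53 had 0.759, 0.559, 1.32 and 0.576 CPM in d14-7, against 3.54, 6.34, 9.27 and 11.2 CPM in WT (-3.25 ± 0.35, edgeR adjusted p = 1.18e-05). NCED3, the dioxygenase that limits abscisic acid synthesis, had 0.885, 1.12, 0.724 and 0.691 CPM in d14-7, against 2.96, 3.95, 7.62 and 11.6 CPM in WT (-2.94 ± 0.41, edgeR adjusted p = 0.000109). In each of these 3 genes WT replicate 1 was the lowest WT library and WT replicate 4 the highest, and all WT libraries stood above all d14-7 libraries. When the leaf score was a covariate the changes were -2.48 for HB21, -2.51 for HB53 and -1.84 for NCED3, all still called.

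TIE1, a repressor that binds BRC1 protein, was scarce, at 0.101 ± 0.0877 CPM in d14-7, against 0.338 ± 0.0666 CPM in WT, and fell by 1.84 (SE 0.48, edgeR adjusted p = 0.00801), which was not called with the leaf score (-1.74, edgeR adjusted p = 0.1). BRC2, the close relative of BRC1, was not called, with 3.88, 4.97, 4.81 and 4.23 CPM in d14-7 against 3.38, 5.31, 3.94 and 4.69 CPM in WT (0.05 ± 0.16, edgeR adjusted p = 0.821). The 2 groups overlapped fully for BRC2 and not at all for BRC1. Against all 3 other genotypes 5 of the 7 genes were lower in d14-7. BRC1 stood at 0.373 CPM in d14-7, 11.0 CPM in the ckx3 ckx5 libraries, 8.49 CPM in scl28 and 6.99 CPM in WT.

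The 3 bud dormancy markers all fell, also against both other genotypes. The dormancy-associated gene DRM2 was at 0.627 ± 0.296 CPM in d14-7, against 10.3 ± 5.56 CPM in WT (-3.99 ± 0.42, edgeR adjusted p = 1.03e-05), and the linker histone HIS1-3 was at 0.849 ± 0.242 CPM in d14-7, against 7.86 ± 4.72 CPM in WT (-3.23 ± 0.46, edgeR adjusted p = 0.000121). DRM1 was at 9.28 ± 1.34 CPM in d14-7, against 27.4 ± 13.0 CPM in WT (-1.56 ± 0.26) and was not called with the leaf score (-0.83, edgeR adjusted p = 0.0755). Of 21 genes of carbon starvation, a state whose transcripts are also found in dormant buds, 10 fell and 1 rose, with a median of -0.41. GDH2, a glutamate dehydrogenase, fell to 63.6 ± 5.76 CPM in d14-7, against 108 ± 14.4 CPM in WT, and the transcription factor gene BZIP11 rose to 24.4 ± 2.49 CPM in d14-7, against 15.4 ± 1.89 CPM in WT. DIN6, an asparagine synthetase induced in the dark, overlapped between the groups at 11.5 to 19.2 CPM in d14-7 and 18.6 to 58.3 CPM in WT (-1.26 ± 0.30, edgeR adjusted p = 0.00531). It was not called with the leaf score (-0.47) or without WT replicates 3 and 4 (-0.44), and each of these left 5 falls in the list.

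Abscisic acid, which acts downstream of BRC1 in bud dormancy, is read out by a set of transcription factors and protective proteins. Of 20 response genes, 19 fell and none rose, with a median of -0.84, and 17 had no overlap between the groups. LEA4-5, a late embryogenesis abundant protein that protects dehydrated cells, had 0.253, 0.373, 0.165 and 0.202 CPM in d14-7, against 2.96, 6.66, 7.86 and 10.6 CPM in WT, a change of -4.81 ± 0.43 (edgeR adjusted p = 2.65e-06). ABI5, the bZIP factor that binds abscisic acid response elements, had 0.801, 0.870, 0.856 and 0.662 CPM in d14-7, against 3.32, 3.46, 4.65 and 7.25 CPM in WT, a change of -2.56 ± 0.28 (edgeR adjusted p = 1.61e-05). The d14-7 libraries were close together for both genes, and the WT libraries covered more than a 2-fold range.

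The 300 bases before the annotated starts of LEA4-5, RD29B and ABI5 are shown because these members fell and their windows hold several copies of a known promoter element, which most promoters of the list do not hold. Capitals mark the letters ACGTGNC on either strand, the abscisic acid response element, in RefSeq sequence of TAIR10.1. The windows are chr5:2090431-2090730 (minus strand) for LEA4-5, chr5:21236721-21237020 (plus strand) for RD29B and chr2:15207637-15207936 (minus strand) for ABI5.
LEA4-5: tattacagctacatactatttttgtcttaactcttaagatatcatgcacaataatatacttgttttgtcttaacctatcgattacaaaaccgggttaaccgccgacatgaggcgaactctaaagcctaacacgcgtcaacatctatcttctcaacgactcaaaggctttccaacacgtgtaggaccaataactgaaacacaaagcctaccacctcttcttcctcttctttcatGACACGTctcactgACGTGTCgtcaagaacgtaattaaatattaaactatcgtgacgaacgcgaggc
RD29B: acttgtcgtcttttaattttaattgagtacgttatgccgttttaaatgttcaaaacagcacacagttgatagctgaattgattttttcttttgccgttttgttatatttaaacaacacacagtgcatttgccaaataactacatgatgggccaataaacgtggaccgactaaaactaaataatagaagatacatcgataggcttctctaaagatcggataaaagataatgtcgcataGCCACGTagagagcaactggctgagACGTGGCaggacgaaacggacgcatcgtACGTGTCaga
ABI5: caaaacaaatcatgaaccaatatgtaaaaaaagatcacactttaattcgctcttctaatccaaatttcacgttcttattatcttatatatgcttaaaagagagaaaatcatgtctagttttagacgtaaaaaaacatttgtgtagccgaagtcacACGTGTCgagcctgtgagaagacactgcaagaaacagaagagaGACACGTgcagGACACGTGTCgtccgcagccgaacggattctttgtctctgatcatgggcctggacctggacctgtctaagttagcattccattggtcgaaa

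LEA4-5 has 2 matches, which begin 67 and 53 bases before the start, and RD29B has 3, at 63, 38 and 10 bases. ABI5 has 4, at 145, 102, 91 and 88 bases, of which the last 2 overlap on opposite strands. The element was found in 8 of the 20 promoters of the list (40.0%), against 10.5% of 20806 promoters of loci tested, 12.1% of those of loci that fell and 9.85% of those of loci that rose. Among loci that fell at least 2-fold the share was 14.9%. Letters of TCP factors (GGNCCC) and of class I HD-Zip homeobox factors (CAATNATTG) were also searched. Each stood in 1 of 7 BRC1 module promoters. GGNCCC was found in that of NCED3 and not in those of BRC1, HB21, HB40 or HB53. The NCED3 promoter held neither CAATNATTG nor ACGTGNC. The abscisic acid response element also stood in 1 of 7 BRC1 module promoters, that of HB40. Among loci that fell the shares with the TCP and HD-Zip letters were 9.27% and 1.84%, against 9.20% and 1.24% of all promoters. A match is a description of these letters and not a measured binding site.

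RD29B and RAB18, classical targets of this element, were low in both groups. RD29B was at 0.273 ± 0.0990 CPM in d14-7, against 1.28 ± 0.816 CPM in WT (-2.22 ± 0.44, edgeR adjusted p = 0.00163), and its call was lost with the leaf score (-1.3, edgeR adjusted p = 0.124). RAB18 had 1.14, 0.279, 0.362 and 0.374 CPM in d14-7, against 1.66, 1.96, 1.03 and 1.82 CPM in WT, so that d14-7 replicate 1 overlapped the WT range. It fell by 1.64 (SE 0.41, edgeR adjusted p = 0.00646), and by 2.24 without d14-7 replicate 1. NAP, a NAC factor of leaf senescence, fell by 2.24 (SE 0.41, edgeR adjusted p = 0.000863), with 0.843 to 2.60 CPM in d14-7 and 4.52 to 13.5 CPM in WT, and was not called with the leaf score (-1.69, edgeR adjusted p = 0.0642). With that covariate 11 of the 20 response genes fell. Against all 3 other genotypes 9 were lower in d14-7. RD29B and RAB18 were not among them (d14-7 against the libraries labelled ckx3 ckx5: -0.41 and -0.83, edgeR adjusted p = 0.548 and 0.138).

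Of 19 genes of abscisic acid signalling, 5 rose and 10 fell, where 18.1% of all loci rose and 20.6% fell. The phosphatases HAI1 and HAI2, which are induced by the hormone and damp its signal, fell by 2.3 and 1.49 (SE 0.26 and 0.28, edgeR adjusted p = 1.91e-05 and 0.00103). HAI1 had 3.71, 4.84, 3.36 and 3.40 CPM in d14-7, against 15, 18.2, 16.8 and 25.4 CPM in WT. Among the receptors, PYL9 fell to 8.23 ± 0.301 CPM in d14-7, against 18.4 ± 5.10 CPM in WT (-1.16 ± 0.14), and PYL6 rose to 3.5 ± 1.73 CPM in d14-7, against 0.892 ± 0.393 CPM in WT (1.95 ± 0.37). Beside NCED3, 10 genes of synthesis and breakdown were tested, of which 2 rose and 3 fell, against 18.1% and 20.6% of all loci. CYP707A4, an 8'-hydroxylase that breaks the hormone down, rose to 36.3 ± 1.65 CPM in d14-7, against 14.8 ± 2.56 CPM in WT (1.29 ± 0.12, edgeR adjusted p = 3.01e-06). The related CYP707A3 fell to 2.35 ± 0.660 CPM in d14-7, against 8.82 ± 5.59 CPM in WT (-1.92 ± 0.46), and was called neither with the leaf score (-1.02) nor without WT replicates 3 and 4 (-0.83). The small counts of that list depended on single libraries: 1 rose without WT replicate 2 or 4 or d14-7 replicate 1, 2 or 4, 5 fell without WT replicate 1, and 2 fell without WT replicate 2 or 3.

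Auxin, made in young leaves and shoot tips, flows down the stem and restrains axillary buds. Of the 10 auxin synthesis genes tested all rose, with a median of 1.61, and all 10 had no overlap between the groups. YUC2, 1 of the flavin monooxygenases that make the last step to auxin, had 5.35, 3.94, 4.28 and 4.06 CPM in d14-7, against 1.01, 0.677, 0.412 and 0.290 CPM in WT (2.90 ± 0.35, edgeR adjusted p = 3.23e-05). YUC6 had 13.8, 13.6, 10.2 and 10.1 CPM in d14-7, against 5.14, 3.28, 2.35 and 2.06 CPM in WT (1.90 ± 0.23, edgeR adjusted p = 3.84e-05). In both genes WT replicate 1 was the highest of the WT libraries and still below every d14-7 library.

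YUC9 and YUC8 were scarce in WT. YUC9 had 1.1, 0.404, 1.78 and 1.79 CPM in d14-7, against 0.130, 0, 0.0294 and 0.0791 CPM in WT (4.29 ± 0.59, edgeR adjusted p = 9.89e-05). YUC8 had 1.05, 0.683, 3.52 and 2.77 CPM in d14-7, against 0.195, 0.392, 0.294 and 0.290 CPM in WT (2.78 ± 0.58, edgeR adjusted p = 0.00228). In d14-7 replicates 3 and 4, YUC8 was more than 2-fold above replicates 1 and 2. YUC5 rose by 2.11 (SE 0.58, edgeR adjusted p = 0.0106), at 0.724 ± 0.326 CPM in d14-7, against 0.160 ± 0.117 CPM in WT. Adjusted for the leaf score 4 of the 10 genes rose. YUC2, YUC6 and YUC9 were among them (2.18, 1.46 and 3.3), while YUC8 and YUC5 were not called (2.79 and 2.24, edgeR adjusted p = 0.0512 and 0.0911). Against all 3 other genotypes 6 of the 10 were higher in d14-7.

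Of the 14 auxin transport genes, 6 rose and 3 fell, where 18.1% of all loci rose and 20.6% fell. PIN4, an efflux carrier, had 91.1, 73.4, 109 and 100 CPM in d14-7, against 60.2, 48.1, 49.6 and 47.4 CPM in WT (0.86 ± 0.12, edgeR adjusted p = 8.33e-05). The uptake carrier gene LAX1 rose to 66.5 ± 5.47 CPM in d14-7, against 45.4 ± 4.40 CPM in WT (0.55 ± 0.11). The groups did not overlap for either carrier, and both kept their call with the leaf score. The exporter ABCB1 fell to 179 ± 19.1 CPM in d14-7, against 248 ± 39.4 CPM in WT (-0.47 ± 0.12), and was not called with the leaf score (-0.20) or without WT replicates 3 and 4 (-0.28). Without d14-7 replicate 2 or 4 only 1 transport gene fell.

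Of 19 genes that respond to auxin, 6 rose and 3 fell, where 18.1% of all loci rose and 20.6% fell. IAA29, an Aux/IAA repressor, had 3.37, 2.17, 10.7 and 13.5 CPM in d14-7, against 0.813, 0.428, 0.648 and 0.580 CPM in WT (3.59 ± 0.49, edgeR adjusted p = 9.55e-05), with d14-7 replicates 3 and 4 highest as for YUC8. GH3.6, an enzyme that conjugates auxin to amino acids, had 72.4, 59.9, 64.8 and 86.5 CPM in d14-7, against 223, 286, 334 and 338 CPM in WT (-2.06 ± 0.16, edgeR adjusted p = 5.27e-07). Its relative GH3.5 fell to 75.2 ± 21.0 CPM in d14-7, against 204 ± 72.1 CPM in WT (-1.44 ± 0.27), and GH3.1, of the same family, rose to 1.32 ± 0.444 CPM in d14-7, against 0.559 ± 0.132 CPM in WT (1.25 ± 0.27). With the leaf score IAA29 and GH3.6 kept their calls, and GH3.5 and GH3.1 did not (edgeR adjusted p = 0.176 and 0.0853).

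**Figure D2:**
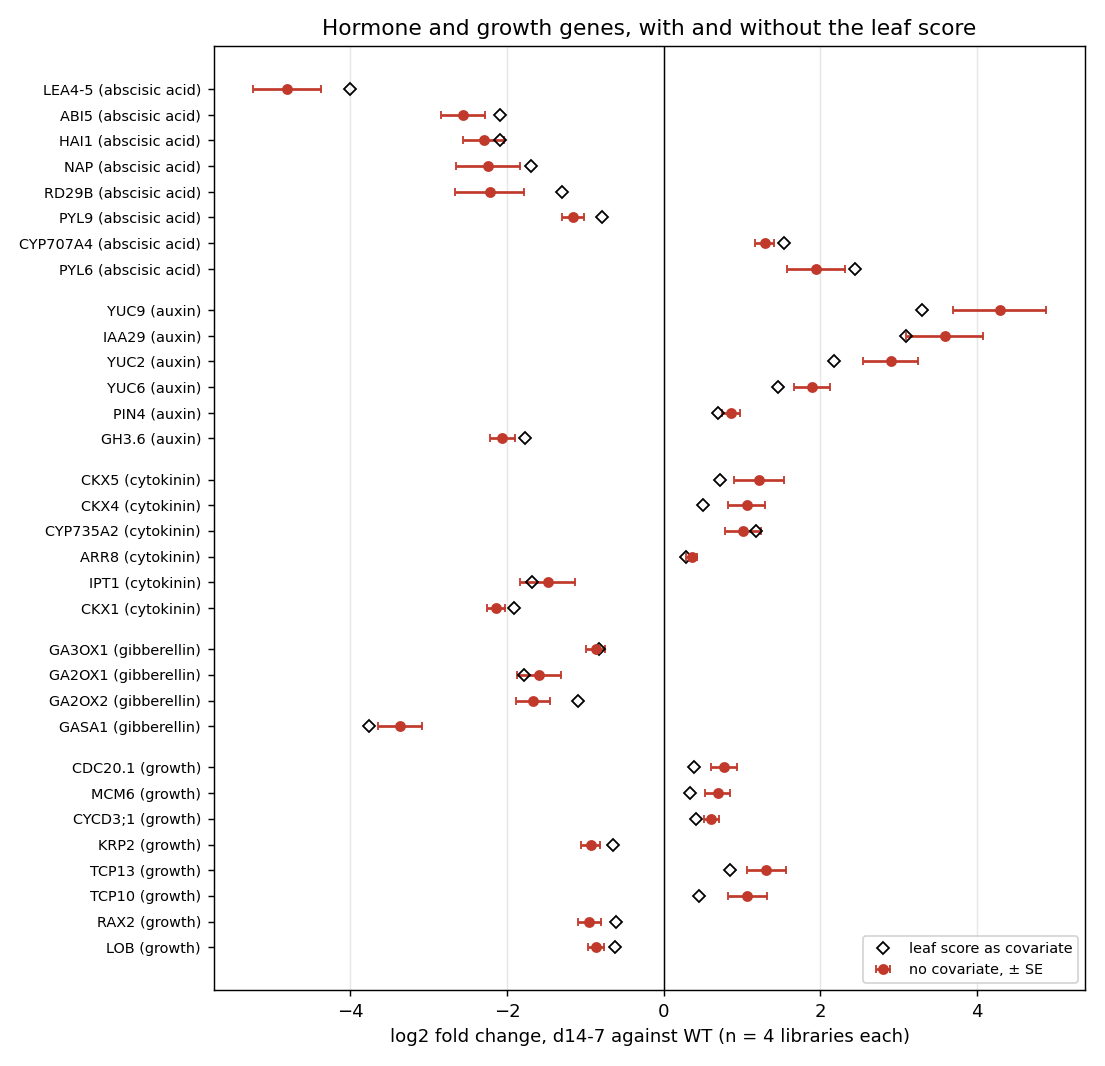
Log2 fold change of 32 genes in d14-7 against WT, as red points ± SE from the model without a covariate and as open diamonds from the model with the leaf score. LEA4-5 lies at -4.81 and -4.0 in the 2 models and YUC9 at 4.29 and 3.3, and the division genes CDC20.1 and MCM6 lie at 0.77 and 0.69 without the covariate and at 0.39 and 0.33 with it.

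Cytokinin promotes bud outgrowth, and its level is set by IPT enzymes that make it and CKX oxidases that destroy it. Of 20 genes of synthesis and breakdown, 6 rose and 3 fell, against 18.1% and 20.6% of all loci. Among the oxidases CKX1 fell, and CKX4 and CKX5 rose. CKX1 had 7.33, 7.58, 8.03 and 7.09 CPM in d14-7, against 27.5, 34.6, 35.0 and 34.8 CPM in WT, a change of -2.14 ± 0.11 (edgeR adjusted p = 4.96e-09). It was lower in d14-7 than in the libraries labelled ckx3 ckx5 (42.0 CPM) and scl28 (37.7 CPM) as well. CKX4 rose to 5.88 ± 0.814 CPM in d14-7, against 2.84 ± 1.21 CPM in WT (1.06 ± 0.24), and CKX5 had 5.61, 6.43, 7.67 and 11.1 CPM in d14-7, against 6.11, 2.53, 2.56 and 2.11 CPM in WT (1.22 ± 0.32, edgeR adjusted p = 0.00783). WT replicate 1 lay within the d14-7 range of CKX5, and neither CKX4 nor CKX5 was called with the leaf score (0.50 and 0.72) or without WT replicates 3 and 4 (0.64 and 0.83).

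IPT1, an isopentenyltransferase, fell to 0.350 ± 0.113 CPM in d14-7, against 0.973 ± 0.179 CPM in WT (-1.48 ± 0.35), and CYP735A2, which makes trans-zeatin, rose to 4.43 ± 1.36 CPM in d14-7, against 2.18 ± 0.302 CPM in WT (1.01 ± 0.23). Both kept their calls with the leaf score. Without WT replicate 1 there were 5 falls in the list. Of the 8 type-A response regulators, the primary targets of cytokinin signalling, 4 rose and none fell, with a median of 0.46. ARR8 rose to 54.6 ± 2.77 CPM in d14-7, against 42.7 ± 4.39 CPM in WT (0.36 ± 0.07, edgeR adjusted p = 0.00132). The mean log2 CPM of the 8 regulators was 4.57, 4.67, 4.47 and 4.80 in d14-7, against 4.57, 4.21, 3.65 and 3.43 in WT, which is the order of the WT leaf scores. The number that rose was 7 without WT replicate 1, 2 without WT replicate 3, 1 without WT replicate 4, 1 without d14-7 replicate 4 and 1 with the leaf score.

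Of 21 gibberellin genes tested, 10 fell and 1 rose, with a median of -0.28. GA2OX2 and GA2OX1, oxidases that inactivate gibberellins, fell by 1.67 and 1.59 (SE 0.22 and 0.28, edgeR adjusted p = 6.45e-05 and 0.000586). GA2OX2 had 3.88, 4.91, 3.72 and 3.66 CPM in d14-7, against 7.64, 11.3, 13.6 and 18.7 CPM in WT. GA3OX1, which makes the active hormone, also fell, with 12.3, 11.3, 9.51 and 11.0 CPM in d14-7, against 19.6, 22.3, 21.0 and 17.7 CPM in WT (-0.87 ± 0.12). The inactivating oxidase gene GA2OX4 was scarce and fell to 0.353 ± 0.106 CPM in d14-7, against 0.769 ± 0.189 CPM in WT (-1.12 ± 0.31), with no call with the leaf score (-1.09, edgeR adjusted p = 0.107). Against all 3 other genotypes 9 of the 21 genes were lower in d14-7, and with the leaf score 5 fell. The lone rise was absent without WT replicate 2 or 4 or d14-7 replicate 1 or 4, and there were 2 without WT replicate 1 or d14-7 replicate 3. GASA1, a gibberellin-responsive gene outside that list, was among the 12 largest falls, with 2.57, 2.76, 2.67 and 2.65 CPM in d14-7, against 33.3, 36.6, 22.8 and 18.3 CPM in WT (-3.37 ± 0.28, edgeR adjusted p = 1.06e-06).

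Cell division genes were higher in d14-7. Of 31 genes of the G2/M phase, 27 rose and none fell, with a median of 0.55, and of 20 S phase genes 15 rose and none fell, with a median of 0.49. CDC20.1, an activator of the anaphase-promoting complex, had 140, 167, 138 and 159 CPM in d14-7, against 128, 97.5, 70.5 and 59.0 CPM in WT (0.77 ± 0.17, edgeR adjusted p = 0.00333). MCM6, a subunit of the replicative helicase, was at 40.6 ± 2.09 CPM in d14-7, against 25.3 ± 7.78 CPM in WT (0.69 ± 0.16), the cyclin CYCA2;4 at 17.8 ± 1.76 CPM in d14-7, against 10.6 ± 3.51 CPM in WT (0.75 ± 0.17), and the kinesin POK1, which guides the division plane, at 41.7 ± 5.16 CPM in d14-7, against 26.1 ± 6.79 CPM in WT (0.68 ± 0.14). For CDC20.1 the WT libraries ranked as on the leaf score, with replicate 1 closest to d14-7.

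The mean log2 CPM of the G2/M genes was 4.80, 5.10, 4.81 and 4.92 in d14-7, against 4.77, 4.54, 4.16 and 4.05 in WT. That of the S phase genes was 5.09, 5.26, 5.00 and 5.18 in d14-7, against 5.11, 4.76, 4.37 and 4.17 in WT. WT replicate 1 thus lay inside the d14-7 range of the S phase genes. With the leaf score 2 G2/M genes and 1 S phase gene rose, and CDC20.1, MCM6, CYCA2;4 and POK1 were not called (0.39, 0.33, 0.40 and 0.42), while EDE1, a microtubule-binding protein of the mitotic array, rose in that model too (0.47, edgeR adjusted p = 0.0256). Without WT replicates 3 and 4 together 5 G2/M genes and 1 S phase gene rose. A model of only the d14-7 and WT libraries gave 14 G2/M and 5 S phase rises. The S phase count was 5 without WT replicate 3, WT replicate 4 or d14-7 replicate 2, and 8 without d14-7 replicate 4. Against all 3 other genotypes 1 gene of each of these lists was higher in d14-7.

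CYCD3;1, the D-type cyclin through which cytokinin acts on division, rose to 101 ± 7.19 CPM in d14-7, against 66.6 ± 11.9 CPM in WT (0.61 ± 0.10, edgeR adjusted p = 0.000306), and it was called with the leaf score and against both other genotypes. It was 1 of 3 D-type cyclins of 8 that rose, and 6 did without WT replicate 1, and 2 without WT replicate 3, WT replicate 4 or d14-7 replicate 2. Of the 15 CDK inhibitors tested, 5 rose and 4 fell, against 18.1% and 20.6% of all loci. KRP2 fell to 23.1 ± 2.06 CPM in d14-7, against 43.9 ± 8.36 CPM in WT (-0.93 ± 0.12, edgeR adjusted p = 5.14e-05), and SIM, an inhibitor that promotes endoreduplication, fell to 15.3 ± 0.946 CPM in d14-7, against 21.9 ± 3.21 CPM in WT (-0.52 ± 0.11). KRP1 and KRP3 rose by 0.79 and 0.66 (SE 0.21 and 0.17) with overlap between the groups. Of these 4 inhibitors KRP2 alone was called with the leaf score (-0.65, edgeR adjusted p = 0.000971). The number that rose was 2 without WT replicate 3 or 4 or d14-7 replicate 1, 2 or 4.

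Genes of ribosome biogenesis followed the same WT order. Of 14, 13 rose and none fell, with a median of 0.46, but none had separate groups: their mean log2 CPM was 7.07, 7.25, 6.83 and 7.11 in d14-7, against 7.04, 6.69, 6.38 and 6.26 in WT. FIB2, a fibrillarin of the nucleolus, had 147, 182, 115 and 156 CPM in d14-7, against 126, 85.8, 63.8 and 52.9 CPM in WT (0.87 ± 0.22, edgeR adjusted p = 0.00658). Of 12 ribosomal protein genes 9 rose. With the leaf score no gene of either list was called. A model of only the d14-7 and WT libraries gave 3 biogenesis rises and 1 ribosomal protein rise. The biogenesis count was 6 without WT replicate 3, WT replicate 4 or d14-7 replicate 2 and 8 without d14-7 replicate 4, and the ribosomal protein count was 0 without WT replicate 3, 1 without WT replicate 4 or d14-7 replicate 2 and 3 without d14-7 replicate 4.

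**Figure D3:**
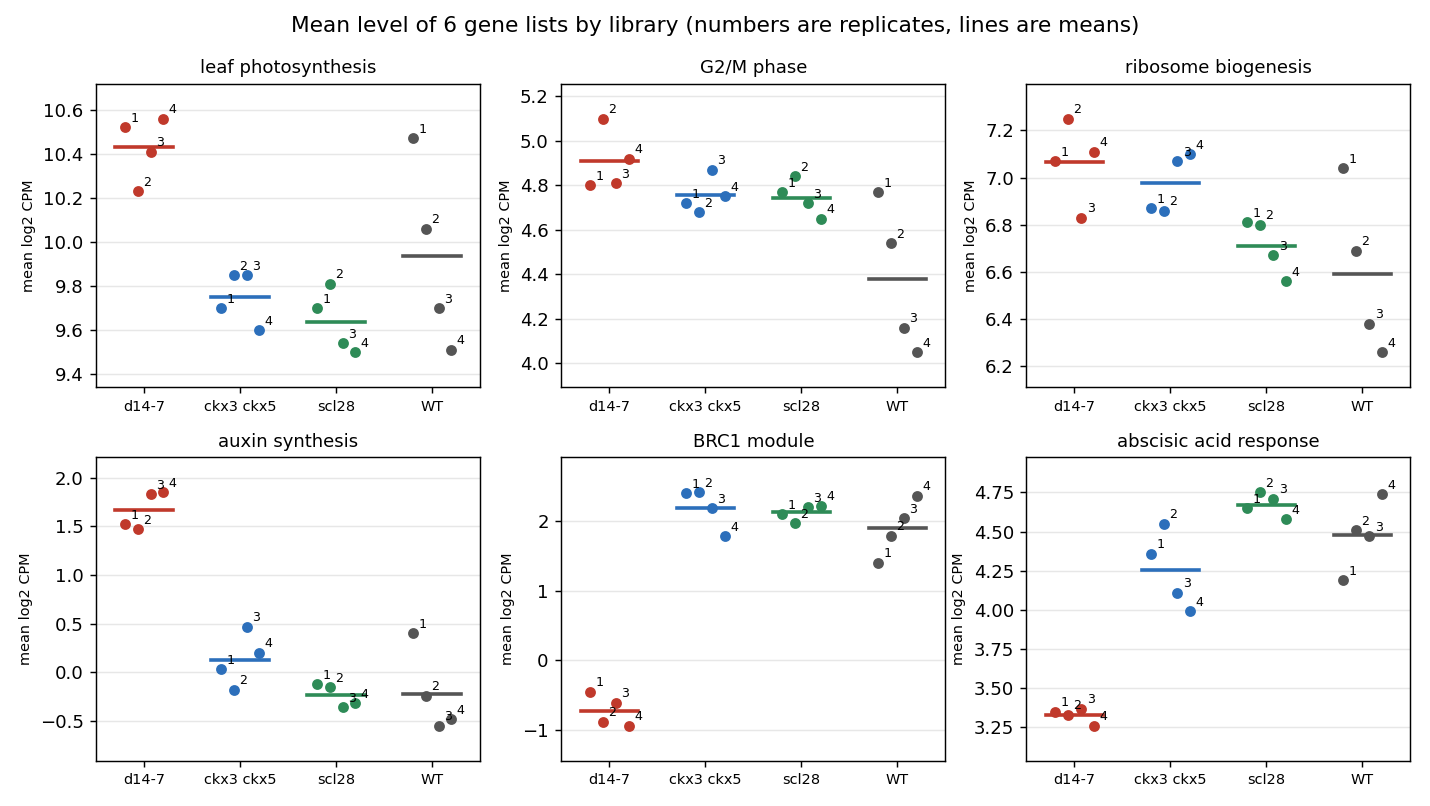
Mean log2 CPM of 6 gene lists in each library, for d14-7, ckx3 ckx5, scl28 and WT from left to right, with the replicate number beside each point and a line at the mean. In the leaf, G2/M and ribosome panels WT replicate 1 lies among or next to d14-7 and WT replicates 3 and 4 lie lowest in WT, while in the auxin synthesis, BRC1 module and abscisic acid response panels all 4 d14-7 libraries lie apart from every other library.

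Genes that define axillary meristems and organ boundaries were lower in d14-7. Of 12 tested, 7 fell and none rose, with a median of -0.64. The MYB genes RAX1, RAX2 and RAX3, which promote axillary meristem formation, fell by 1.1, 0.95 and 1.03 (SE 0.25, 0.15 and 0.23, edgeR adjusted p = 0.004, 0.000244 and 0.00336). RAX2 had 4.55, 4.78, 3.75 and 3.31 CPM in d14-7, against 5.89, 7.62, 8.57 and 9.39 CPM in WT. The boundary gene LOB had 24.3, 23.2, 21.3 and 24 CPM in d14-7, against 33.2, 41.6, 47.5 and 46.4 CPM in WT (-0.86 ± 0.10, edgeR adjusted p = 1.84e-05), and BOP2, a co-activator at leaf bases, was at 21.3 ± 2.84 CPM in d14-7, against 38.0 ± 5.62 CPM in WT (-0.84 ± 0.12). None of these genes overlapped between the groups. With the leaf score RAX2, LOB and BOP2 fell, which were the 3 falls of the list in that model. LOB and BOP2 were also lower in d14-7 than in the other 2 mutants, but RAX2 was not called against the libraries labelled ckx3 ckx5 (-0.02, edgeR adjusted p = 0.93).

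Of 13 shoot meristem genes, 5 fell and 2 rose, where 20.6% of all loci fell and 18.1% rose. KNAT2 and KNAT6, homeobox genes of meristem and boundary, fell by 0.61 and 0.57 (SE 0.12 and 0.10), with KNAT6 at 35.3 ± 2.0 CPM in d14-7, against 52.3 ± 9.71 CPM in WT. HAM3, a GRAS gene that maintains meristem cells, rose to 14 ± 0.918 CPM in d14-7, against 10.3 ± 0.902 CPM in WT (0.45 ± 0.11), and without d14-7 replicate 3 there was 1 rise in the list. With the leaf score 2 members fell and 1 rose. KNAT6 kept its call there, and KNAT2 and HAM3 did not (-0.36 and 0.45, edgeR adjusted p = 0.0709 and 0.0534). Of the CIN-type TCP genes, which drive leaf cells from division into maturation, 7 of 8 rose with a median of 0.94 (4 without WT replicate 3). TCP13 had 6.2, 6.55, 5.53 and 6.42 CPM in d14-7, against 3.64, 2.28, 2.12 and 1.98 CPM in WT (1.31 ± 0.25, edgeR adjusted p = 0.00118). TCP3 rose to 11.5 ± 1.65 CPM in d14-7, against 5.29 ± 2.27 CPM in WT, and TCP10 rose to 36.7 ± 2.95 CPM in d14-7, against 17.6 ± 8.40 CPM in WT. These 3 were the only rises of the list with the leaf score (0.85, 0.66 and 0.45, edgeR adjusted p = 0.0439, 0.042 and 0.0389), where its median was 0.28. Without WT replicates 3 and 4 together 3 members rose. The mean log2 CPM of the list was 3.63, 3.11, 2.53 and 2.41 in WT replicates 1 to 4, the order of the WT leaf scores. TCP13, TCP3 and TCP10 were all higher in d14-7 than in both other mutants.

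Of 18 flowering genes tested, 7 fell and 1 rose, and 7 fell with the leaf score. TSF, a close relative of the florigen FT, had 0.759, 0.0932, 0.296 and 0.0864 CPM in d14-7, against 1.3, 2.71, 4.92 and 4.90 CPM in WT (-3.6 ± 0.59, edgeR adjusted p = 0.000392, and -4.45 without d14-7 replicate 1). It was also near 0 in the libraries labelled ckx3 ckx5 (0.159 CPM), against which d14-7 was not called (0.81, edgeR adjusted p = 0.46). TFL1, which keeps shoot meristems indeterminate, was at 7.94 ± 0.477 CPM in d14-7, against 17.0 ± 3.96 CPM in WT (-1.1 ± 0.14). The floral repressor FLC was at 7.13 ± 0.779 CPM in d14-7, against 13.9 ± 1.93 CPM in WT (-0.97 ± 0.16), and CO, the activator that reads day length, was at 3.5 ± 0.229 CPM in d14-7, against 5.93 ± 0.629 CPM in WT (-0.76 ± 0.12). TFL1, FLC and CO were lower in d14-7 than in both other mutants as well. The lone rise of the list was lost without WT replicate 2 or 3 or d14-7 replicate 1 or 2, and there were 2 rises without WT replicate 1. FT did not pass the count filter, with 39 counts over the 4 d14-7 libraries and 8 over the 4 WT libraries.

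**Figure D4:**
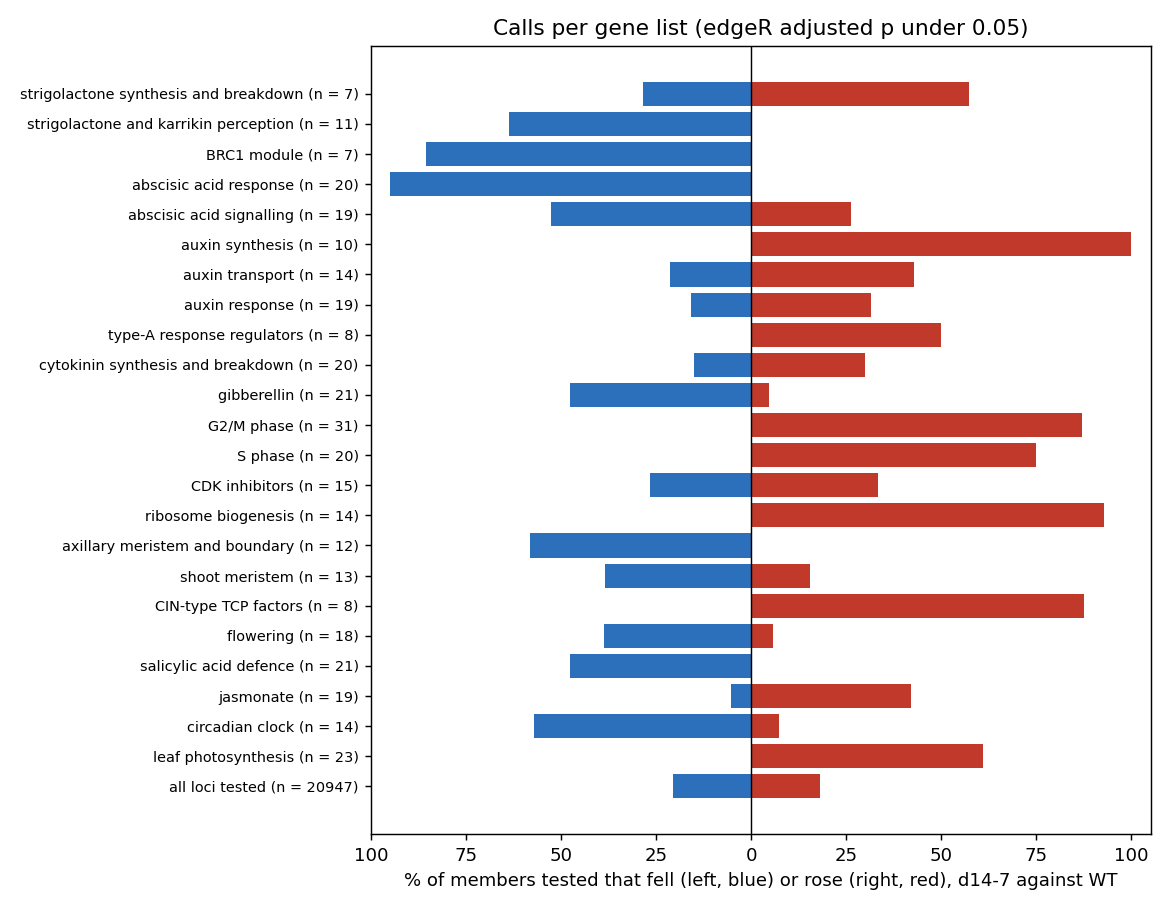
Share of the tested members of 23 gene lists and of all loci that fell (blue, left) or rose (red, right) in d14-7 against WT at an edgeR adjusted p under 0.05. All 10 auxin synthesis genes rose and 19 of 20 abscisic acid response genes fell, beside 18.1% and 20.6% of all loci.

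Some markers of other tissue moved as well, and apart from the leaf covariate their part in the results above was not tested. Of the 23 photosynthesis genes, 14 rose and none fell. LHCB1.1, a light-harvesting protein, had 3190, 2970, 3240 and 3780 CPM in d14-7, against 2720, 1720, 1200 and 950 CPM in WT (1.00 ± 0.24). The number of photosynthesis genes that rose was 23 without WT replicate 1, 3 without WT replicate 3 or d14-7 replicate 4 and 4 without WT replicate 4. It was 6 without d14-7 replicate 1, 7 without d14-7 replicate 3 and 3 with only the d14-7 and WT libraries in the model. Of 17 xylem genes 5 rose and 1 fell, and of 4 root markers tested 2 rose and 1 fell. Over all loci 18.1% rose and 20.6% fell. The mean log2 CPM of the xylem list was 3.31 to 3.69 in d14-7 and 3.08 to 3.62 in WT, and that of the root list was 2.38 to 2.68 in d14-7 and 1.81 to 2.14 in WT. The lone fall of the xylem list was lost without WT replicate 3 or 4 or d14-7 replicate 2, 3 or 4, and its rises were 3 without WT replicate 2 or 3 or d14-7 replicate 1, 2 or 4. The root fall was lost without WT replicate 2, 3 or 4 or d14-7 replicate 1, 3 or 4. HB8, the vascular homeobox gene, was higher in d14-7 with little spread, at 79.0, 75.3, 75.4 and 75.8 CPM in d14-7, against 48.9, 56.3, 55.2 and 52.4 CPM in WT (0.52 ± 0.05, edgeR adjusted p = 8.2e-06). It was also higher in d14-7 than in the ckx3 ckx5 libraries, by 0.61, and than in scl28, by 0.93 (edgeR adjusted p = 2.97e-07 and 5.95e-09).

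Of 21 salicylic acid defence genes 10 fell and none rose against WT. PR1, the classical marker of this response, had 21.7, 24.7, 16.4 and 7.11 CPM in d14-7, against 100, 90.8, 114 and 239 CPM in WT (-2.97 ± 0.40, edgeR adjusted p = 0.000118). SARD1, which activates salicylic acid synthesis, fell to 14.2 ± 2.41 CPM in d14-7, against 27.3 ± 6.40 CPM in WT, and the glucanase PR2 fell to 102 ± 35.4 CPM in d14-7, against 232 ± 112 CPM in WT, though PR2 was not called with the leaf score (-0.63, edgeR adjusted p = 0.38). The same list was higher in d14-7 than in the other mutants: 16 of 21 genes were higher than in the libraries labelled ckx3 ckx5 (17.8% of all loci) and 14 were higher than in scl28 (20.0%). Without WT replicate 2 the number that fell was 15.

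The defensin gene PDF1.2, a target of jasmonate and ethylene, had 413, 355, 336 and 226 CPM in d14-7, against 54.3, 33.4, 74.9 and 103 CPM in WT (2.32 ± 0.51, edgeR adjusted p = 0.0037), and was not called with the leaf score (2.58, edgeR adjusted p = 0.0532). Its relative PDF1.3 had 59.8, 54.8, 67.0 and 42.9 CPM in d14-7, against 3.58, 1.92, 6.01 and 4.03 CPM in WT (3.84 ± 0.29, edgeR adjusted p = 4.87e-07). Counts of these near-identical defensin genes may be split between copies. Of 19 jasmonate genes 8 rose and 1 fell, and none was called with the leaf score. The number that rose was 13 without WT replicate 1, 4 without WT replicate 2 or 3 or d14-7 replicate 4, and 2 without WT replicate 4 or d14-7 replicate 2. Of 14 flavonoid genes 4 rose, among them the regulators MYB111 and PAP2 (1.72 ± 0.38 and 1.47 ± 0.32), and neither was called with the leaf score. That number was 2 without WT replicate 3 or 4 or d14-7 replicate 2, and 1 fell without WT replicate 1.

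Clock genes bear on the hour of harvest. Of 14, 8 fell and 1 rose, with a median of -0.28. LHY, a morning gene, was at 186 ± 3.52 CPM in d14-7, against 258 ± 1.67 CPM in WT (-0.47 ± 0.07), RVE1 at 7.83 ± 0.480 CPM in d14-7, against 12.7 ± 1.18 CPM in WT (-0.70 ± 0.10), and LUX, an evening gene, at 8.33 ± 0.867 CPM in d14-7, against 6.31 ± 0.280 CPM in WT (0.40 ± 0.09). Between genotypes LHY ranged more widely, with 186 CPM in d14-7, 21.2 CPM in the ckx3 ckx5 libraries, 526 CPM in scl28 and 258 CPM in WT. How far an hour of harvest that differs between the groups enters the results was not tested.

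The locus with the smallest p of all was AT2G41640, annotated as a glycosyltransferase of family 61. It had 58.8, 67.7, 60.4 and 65.9 CPM in d14-7, against 3.54, 4.06, 4.27 and 5.85 CPM in WT (3.82 ± 0.14, edgeR adjusted p = 1.48e-10), and stood at 2.71 CPM in the ckx3 ckx5 libraries and 3.16 CPM in scl28. NRT2.5, a high-affinity nitrate transporter, was among the largest rises and had 2.87, 1.93, 13.7 and 4.21 CPM in d14-7, against 0.0650, 0.0713, 0.383 and 0.343 CPM in WT (4.63 ± 0.68, edgeR adjusted p = 0.000164, and 3.72 without d14-7 replicate 3). ASPGB1, an asparaginase, had 41.2, 27.2, 21.8 and 23.8 CPM in d14-7, against 5.17, 2.57, 1.71 and 1.29 CPM in WT (3.42 ± 0.34, edgeR adjusted p = 6.66e-06). No member of the list of 6 nitrate uptake and reduction genes, which does not hold NRT2.5, rose and 2 fell, with a median of -0.27. The rises of AT2G41640, NRT2.5 and ASPGB1 were also differences from both other mutants, as were those of the carboxypeptidase scpl30 (4.24 ± 0.51) and the cytochrome P450 CYP81F3 (2.41 ± 0.17).

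Of the other lists, 5 of 11 leaf primordium genes rose and 2 fell, 1 of 5 cambium and phloem genes rose, and 3 of 10 genes of wounding, touch and cold handling fell. Of 6 trehalose phosphate synthases 3 fell and 1 rose, of 6 sugar transport genes 1 rose, of 6 floral organ genes 1 rose, of 9 brassinosteroid genes 1 rose and 1 fell, and of 6 expansins 3 rose. Over all loci 18.1% rose and 20.6% fell, and several of these small counts lie near those shares. Several of these counts also depended on single libraries. The leaf primordium rises were 0 without WT replicate 3, 1 without WT replicate 4 or d14-7 replicate 2 and 3 without d14-7 replicate 4. The handling falls were 5 without WT replicate 2 and 1 without WT replicate 3 or 4 or d14-7 replicate 1 or 2. Cambium and phloem falls were 3 without WT replicate 1 and 1 without d14-7 replicate 1, brassinosteroid falls were 3 without WT replicate 1 or d14-7 replicate 3, and sugar transport rises were 2 without WT replicate 4 or d14-7 replicate 2. The floral organ rise was called without WT replicate 2 but not without any other single library.

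Among the largest falls, UMAMIT14, an amino acid exporter, had 1.1, 1.77, 0.658 and 0.432 CPM in d14-7, against 14, 18.6, 33.7 and 33.5 CPM in WT (-4.67 ± 0.38, edgeR adjusted p = 1.08e-06). ACA1, an alpha carbonic anhydrase, had 13.7, 8.48, 13.1 and 16.1 CPM in d14-7, against 63.3, 75.7, 77.8 and 84.2 CPM in WT (-2.55 ± 0.15, edgeR adjusted p = 4.24e-08). Both were lower in d14-7 than in either of the other mutants.

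A few loci were nearly silent in d14-7, with at most 3 counts over its 4 libraries and at least 100 over those of WT. The uncharacterized locus AT1G27565 had 3 counts in d14-7 and 1592 in WT, a ratio of WT to d14-7 of 491 with an exact 95% interval of 168 to 2380 that covers counting error only. It was also near 0 in the libraries labelled ckx3 ckx5, at 0.0760 CPM against 5.28 CPM in scl28, and d14-7 was not called against those libraries (-1.55, edgeR adjusted p = 0.37). 2 of the others encode late embryogenesis abundant proteins, as LEA4-5 does: AT3G17520 had 2 counts in d14-7 and 543 in WT (ratio 251, interval 69.2 to 2080), and AT5G66780 had 2 in d14-7 and 168 in WT (ratio 77.8, interval 21.2 to 647). For AT1G27461, uncharacterized, there were 3 counts in d14-7 and 112 in WT, of which 79 came from WT replicate 4. Fitted changes of such loci moved when 1 library was left out: to -9.65 against -8.73 for AT1G27565 without d14-7 replicate 2, to -8.30 against -5.92 for AT5G66780 without d14-7 replicate 3, and to -3.67 or -5.72 against -4.84 for AT1G27461 without WT replicate 4 or d14-7 replicate 4. A further 3 loci met the same limits, mostly through 1 or 2 WT libraries, and were not called or not tested. No locus was nearly silent in WT by the same limits.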

How the data were processed

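RNA of 16 libraries was sequenced after library preparation with a NEBNext Ultra kit, which does not mark strand, so overlapping and antisense genes cannot be told apart. The authors deposited estimated counts per transcript model, which are whole numbers, and a normalized signal. The signal was used only to check scaling (99.39% of ratios of count to signal, for counts of at least 50, lay within 1% of their column's median). Per the submitters' processing notes the build was TAIR10 and the tool DESeq2, of no stated version. For the aligner and counter, the sources used here give no name. Counts of 41671 models were summed to 33602 loci. Symbols, coordinates and promoter sequence came from RefSeq (TAIR10.1), which held 32835 of the loci, 10654 with a symbol.

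Loci were tested with edgeR 4.0.16 in R 4.3.3 (quasi-likelihood test, robust, TMM, filterByExpr, all 16 libraries in 1 model with 4 genotype means), with Benjamini-Hochberg adjustment over 20947 loci. The common dispersion was 0.016, and log2 CPM used a prior count of 2. The fit was run on simulated counts in which all genotypes shared the same spread per locus. That run therefore cannot show how the wider spread among the WT libraries affects the calls. P-values measure the spread between pools of plants, and intervals of counts cover counting error only. That spread was taken per locus over all 4 genotypes, and so not from the d14-7 and WT pools alone. With only the d14-7 and WT libraries in the model 5034 loci were called, against 8101 with all 16 libraries. How far the wider WT spread accounts for that difference was not tested. Alternatives were DESeq2 1.42.0, limma 3.58.1 (voom), other normalizations and filters, replicate blocks, the leaf score, and libraries left out.

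The 41 gene lists (544 members), the named genes and the alternatives were chosen with earlier results of these data known. Named by rule were D14, all members of the strigolactone, BRC1 and dormancy lists, up to 5 called members of each other list with the largest change and the largest one in the opposite direction, the 12 largest rises and falls, the 5 smallest p in each direction and the nearly silent loci. Of the list members and large changes so named, those printed are a part picked after their values were seen, mainly ones whose call did not rest on 1 library, so their stability says nothing about the rest. Counts of a list always cover all its tested members. Items withheld from this work are not reported here, and the counts of genes examined singly leave them out.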

Additional observations from a re-analysis of the deposited data

Results flagged for a closer look

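Within the groups of 4, single libraries stood apart from the other 3 by Dixon's criterion in 14 of 322 values examined, and chance flags about 1 in 20. In d14-7 these were DRM2 (1.07 CPM in replicate 4 against 0.421 to 0.528 in the others), KRP1 (3.85 CPM in replicate 2 against 6.65 to 7.21), RAB18 (1.14 CPM in replicate 1 against 0.279 to 0.374), HB8 (79.0 CPM in replicate 1 against 75.3 to 75.8) and AT5G66780 (0.0658 CPM in replicate 3 and 0 in the others). In WT replicate 1 they were CKX1 (27.5 CPM against 34.6 to 35.0), CKX5 (6.11 CPM against 2.11 to 2.56), CYP707A4 (11.0 CPM against 15.9 to 16.3), TCP3 (8.65 CPM against 3.85 to 4.67) and AT1G27565 (13.1 CPM against 11.8 to 12). In WT replicate 4 they were PYL6 (1.48 CPM against 0.650 to 0.765), NAP (13.5 CPM against 4.52 to 5.83) and PR1 (239 CPM against 90.8 to 114), and in WT replicate 3 the mean log2 CPM of the CDK inhibitors (2.43 against 2.58 to 2.59). None of the 14 was tested for a cause.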

How the results depend on the processing

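Against 8101 loci called in d14-7 against WT (3796 higher, 4305 lower), the count was 5034 with only these 2 groups in the model (2038 higher), 1946 with the leaf score as a covariate (695 higher, 1251 lower) and 2310 without WT replicates 3 and 4 (796 higher, 1514 lower). Leaving out 1 library at a time gave 5026 to 10355 loci, and of these 2043 to 5151 higher, the fewest without WT replicate 4 (2046 without WT replicate 3, 2436 without d14-7 replicate 2). The leaf score also moved the count against the libraries labelled ckx3 ckx5 to 4964 (2444 lower) and against scl28 to 4081 (1951 higher, 2130 lower). DESeq2, limma-voom, the other normalizations and the filters gave 6862 to 8752 loci. The causes were not tested.

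Replicate numbers did not pair the libraries, since for same-numbered d14-7 and WT libraries the correlations of deviations were -0.036, 0.189, 0.193 and -0.114 and 0 of 4 correlated best with their own number. A replicate block by the number in the title gave 7837 loci. A replicate block by the number in the library name gave 4906 against WT (2081 higher, 2825 lower) and 5121 against scl28 (2291 higher, 2830 lower).

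Of 119 genes examined, 108 were called, and 74 kept the same call in each of the 20 alternatives that tested them. Some scarce genes, such as YUC9, IPT1 and AT1G27461, did not pass the filter of every alternative. With the leaf score 32 calls were lost, and 22 were lost without WT replicates 3 and 4. Signs turned only in genes that were not called: AT4G36470 (0.19 with the leaf score, 0.11 without WT replicates 3 and 4), SMAX1 (0.02 without those), KUF1 (-0.11 with the leaf score), BBX20 (-0.01 with upper-quartile factors and with no or a stricter filter, -0.13 with the library-name block, -0.30 with the leaf score, -0.13 without WT replicates 3 and 4, -0.13 to 0.12 without 1 library, negative without WT replicate 4 or d14-7 replicate 1 or 3), TCP1 and PAP1 (0.26 and 0.02 without WT replicates 1 and 2) and BRC2 (-0.05 without WT replicate 1, up to 0.17 without WT replicate 2). Depth limits transcripts near 0 in 1 group, such as YUC9 and TIE1.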
